A study of Mus musculus with 26 samples.

Results

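The peroxisome is built by a small set of proteins, the peroxins, and filled with enzymes for lipid metabolism. Counts of 31 mouse genes for this organelle were followed in brown adipose tissue (BAT), the heat-producing fat. The list held 13 peroxins, 2 fatty-acyl transporters, 7 enzymes of peroxisomal β-oxidation, 2 carnitine acyltransferases, 2 enzymes of α-oxidation and enoyl reduction, 4 genes of ether lipid synthesis and catalase. The genes were chosen by name, by a rule that uses no measured value. All 31 were found among the 50686 genes listed in the count table, and all 31 passed the filter on low counts.

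The RNA came from BAT of male C57BL/6J mice aged 12 to 16 weeks, 1 library per mouse. Mice labelled KO (fat-specific Afadin knockout, called FAKO by the study) carried floxed Mllt4 alleles and a Cre driven by the Adiponectin promoter, and controls were their littermates; the alleles of the controls are not given in the sources used here. This promoter acts in white as well as brown adipocytes and leaves the other cells of the tissue with the gene. All mice were first housed for 2 weeks at thermoneutrality, given as 30 °C in the labels and 29 °C in the methods, the temperature at which BAT is little used. One set was killed there (7 control mice, 7 labelled KO), and the other was moved to 5 °C for 6 h (5 control mice, 7 labelled KO).

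The libraries held 12705969 to 25732258 counted reads (median 17237377). RNA counts of the gene that was targeted did not separate the genotypes at thermoneutrality. Afdn, the gene of Afadin (Mllt4 is its older symbol), had 151 to 214 CPM (read counts scaled by the library total, with TMM factors) in control mice and 154 to 231 CPM in mice labelled KO. The log2 fold change was -0.01 (standard error, SE, 0.08, adjusted p = 0.992). At 5 °C the ranges were 67.9 to 79.2 CPM and 53.3 to 65.3 CPM and did not overlap, and the log2 fold change was -0.33 (adjusted p = 0.116, SE 0.09). Gene counts also take in reads from exons outside the deleted part, so the mice are called "labelled KO" below. The study also measured Afadin protein in BAT at both temperatures. It reported that the rise of the protein in the cold was smaller in FAKO mice than in controls. The brown adipocyte markers, 10 of 10 of which were tested, summed to 3766 to 5168 CPM at thermoneutrality and to 18059 to 28132 CPM at 5 °C. Control mouse 7 at thermoneutrality stood apart, with 14.3% of its reads on mitochondrial genes against up to 40.5% elsewhere in its group and the highest library factor (1.29), and it held the highest summed markers of skeletal muscle, red cells, fibroblasts and white adipocytes in that group. Several results below are also given without it.

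Proteins of the peroxisome are made in the cytosol. Soluble enzymes are picked up by the receptors Pex5 and Pex7, handed to a docking complex with Pex13 and Pex14 and taken across the membrane. The receptors are then tagged by the RING-finger ligases, among them Pex2 and Pex10, and pulled out by an ATPase complex that holds Pex6 and is anchored by Pex26. Membrane proteins are placed by Pex3, Pex16 and Pex19, and Pex11 proteins elongate and divide the organelle. Inside, very-long-chain, branched-chain and dicarboxylic fatty acids are shortened by β-oxidation, and the shortened chains leave as carnitine esters for the mitochondria. The same organelle begins the synthesis of ether lipids such as plasmalogens and breaks down hydrogen peroxide with catalase. In BAT, peroxisomes are known to be abundant and to multiply in the cold, and several of their lipid enzymes are known targets of the nuclear receptor PPARα.

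PPAR receptors bind direct repeats of the hexamer AGGTCA, so the 250 bases before the RefSeq transcription start (GRCm38.p6) were searched on both strands. The full repeat, 2 copies in the same direction with 1 base between them, was in 11 of 32851 promoters of all genes (0.0335%) and in none of those of the 26 members with an entry. The single hexamer, which any copy of the full repeat also holds, was in 14.0% of all promoters and in 3 of the 26 members, Cat, Pex11g and Scp2. Below are the promoters of Cat and Pex11g, which hold the hexamer (in capitals) and moved in opposite directions in the cold, with those of Ehhadh and Crot, a strong riser and a strong faller. Bases inside the annotated gene were left out, and all are written 5′ to 3′ on the strand of the gene, here the minus strand.
Ehhadh, chr16:21787835-21788084: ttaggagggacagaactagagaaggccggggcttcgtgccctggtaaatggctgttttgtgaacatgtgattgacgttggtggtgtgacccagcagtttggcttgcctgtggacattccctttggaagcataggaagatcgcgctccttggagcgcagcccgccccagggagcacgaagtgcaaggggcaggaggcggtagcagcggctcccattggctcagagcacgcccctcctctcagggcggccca
Cat, chr2:103485161-103485403: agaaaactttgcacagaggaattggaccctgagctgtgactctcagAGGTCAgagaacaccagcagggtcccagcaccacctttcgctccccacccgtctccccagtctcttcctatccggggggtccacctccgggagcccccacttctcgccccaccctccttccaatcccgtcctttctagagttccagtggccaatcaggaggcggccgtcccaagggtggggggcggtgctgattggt
Pex11g, chr8:3467681-3467898: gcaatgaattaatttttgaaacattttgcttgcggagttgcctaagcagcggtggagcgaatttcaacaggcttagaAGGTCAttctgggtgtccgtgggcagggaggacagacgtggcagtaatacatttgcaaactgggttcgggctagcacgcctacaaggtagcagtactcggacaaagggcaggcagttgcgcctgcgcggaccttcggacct
Crot, chr5:8997325-8997396: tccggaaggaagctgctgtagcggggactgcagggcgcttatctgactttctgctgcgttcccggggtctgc
A match is a description of these letters only, and a window without one says nothing about the receptor.

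The levels of the members differed widely. On a scale corrected for gene length (CPM per kb of exon), Phyh, which opens the α-oxidation of phytanic acid, was the highest in control mice at thermoneutrality with 332 ± 63.9 (SD, n = 7), and catalase followed with 166 ± 10.6. The ranges of these 2 genes did not meet each other, nor did catalase meet the next gene. Crat, Gnpat, Scp2 and Hsd17b4 came next, between 73.9 and 87.7 CPM per kb on average, with ranges that overlapped from each to its neighbour. Far2, a fatty acyl-CoA reductase, was the lowest at 0.325 ± 0.0520 and overlapped its neighbour Acox2 (0.521 ± 0.105). The 2 reductases that supply fatty alcohols for ether lipids were thus far apart, since Far1 stood at 3.24 ± 0.471. Ehhadh moved from rank 17 of 31 at thermoneutrality to rank 3 after 6 h at 5 °C, where its 168.7 ± 94.8 CPM per kb overlapped catalase above and Crat below.

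**Figure D1:**
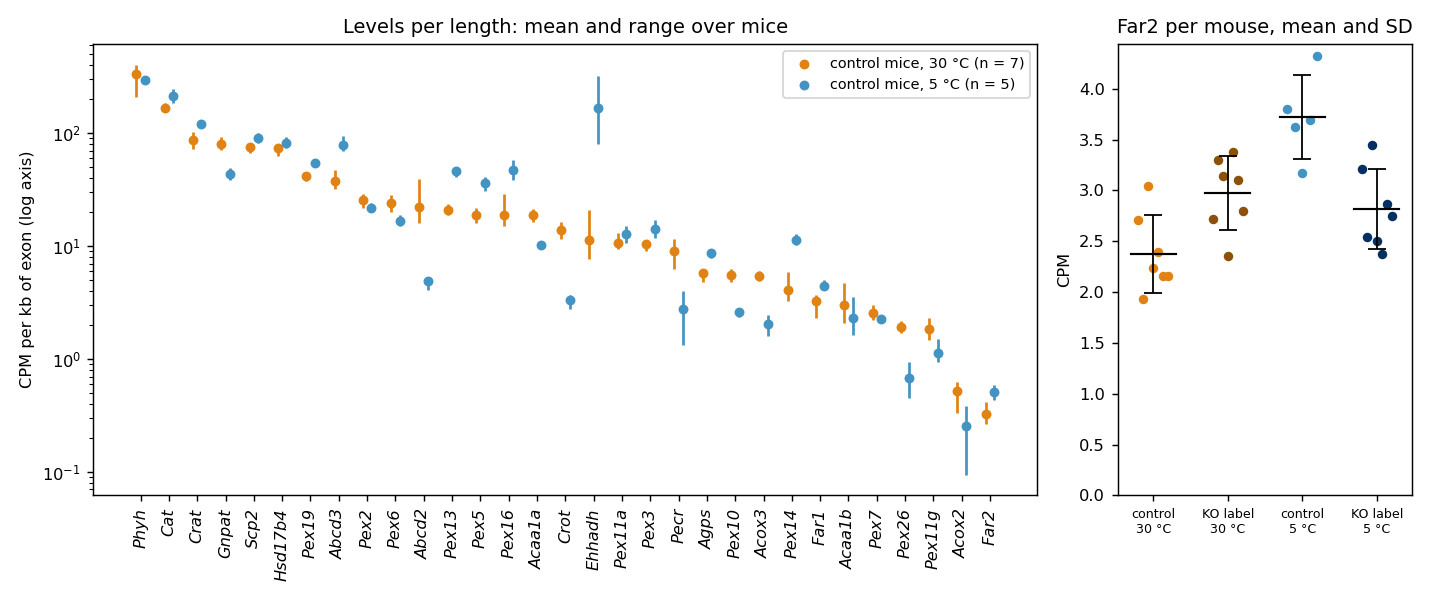
Left, level of each of the 31 genes in control mice as CPM per kb of exon on a log axis, at 30 °C (n = 7) and 5 °C (n = 5), with points for means and lines for the range over mice. Right, CPM of Far2 in each mouse of the 4 groups (linear axis from 0) with mean and SD in black. Phyh (332 CPM per kb) and Far2 (0.325) mark the ends of the scale at 30 °C, and Ehhadh shows the largest step between the temperatures.

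The cold comparison asks how 6 h at 5 °C changed these genes. In control mice 15 members rose and 12 fell, against 31.6% and 33.4% of the 17286 genes tested (65.0% called in either direction, by the quasi-likelihood test of edgeR with p adjusted after Benjamini and Hochberg and a threshold of 0.05). In mice labelled KO 15 rose and 11 fell, against 33.7% and 34.9% of all genes (68.6% in either direction). The balance depended on the scaling, since with library size alone 11 rose and 14 fell in control mice and 10 rose and 15 fell in mice labelled KO. The median log2 fold change of the members was 0.16 in control mice and 0.30 in mice labelled KO, beside -0.01 and -0.03 over all genes tested. The values of all mice at 5 °C lay beyond those at thermoneutrality for 23 members in control mice and 22 in mice labelled KO, which held for 46.4% and 40.4% of all genes. Most of the transcriptome moved with temperature, and the members moved in both directions. In bulk tissue a change in the number of cells of a type and a change of RNA per cell cannot be told apart. Of the 10 brown adipocyte markers, 3 rose and 4 fell in control mice, and 3 rose and 5 fell in mice labelled KO. Markers of other cells moved with temperature too. In control mice 3 endothelial genes rose and 2 fell of 5, 4 of 5 lymphocyte genes fell (median -2.07), 3 of 4 nuclear RNA genes rose (median 0.73) and none of 5 red cell genes passed. In mice labelled KO all 5 red cell genes rose (median 1.24), 3 endothelial genes rose and 2 fell, 1 of 5 lymphocyte genes fell, and 2 nuclear RNA genes rose and 1 fell. Their part in the cold responses of the members was not tested.

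Of these, 14 rises and 11 falls were called in both genotypes. The shared rises were Pex5, Pex13, Pex14, Pex3, Pex16, Pex19, Pex11a, Abcd3, Ehhadh, Scp2, Crat, Agps, Far1 and Cat. The shared falls were Pex10, Pex6, Pex26, Pex11g, Abcd2, Acox2, Acox3, Acaa1a, Crot, Pecr and Gnpat. Pex7, Acaa1b and Phyh passed the test in neither genotype, and Far2, Pex2 and Hsd17b4 passed it in one of them. Without control mouse 7 at thermoneutrality, Phyh (log2 fold change -0.28, adjusted p = 0.00039) and Pex7 (-0.21, adjusted p = 0.0226) passed in control mice too. Both also passed as lower in control mice with library size alone (adjusted p = 0.0138 for Phyh and 0.00669 for Pex7). The same held with upper-quartile factors (0.0153 and 0.00353) and with at least 10 counts in every mouse (0.0496 and 0.0230). Pex7 passed with only the groups compared as well (adjusted p = 0.0169). With library size alone Pex7 (-0.23), Pex2 (-0.29), Phyh (-0.29) and Far2 (-0.41, adjusted p = 0.0124) passed as lower in mice labelled KO.

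**Figure D2:**
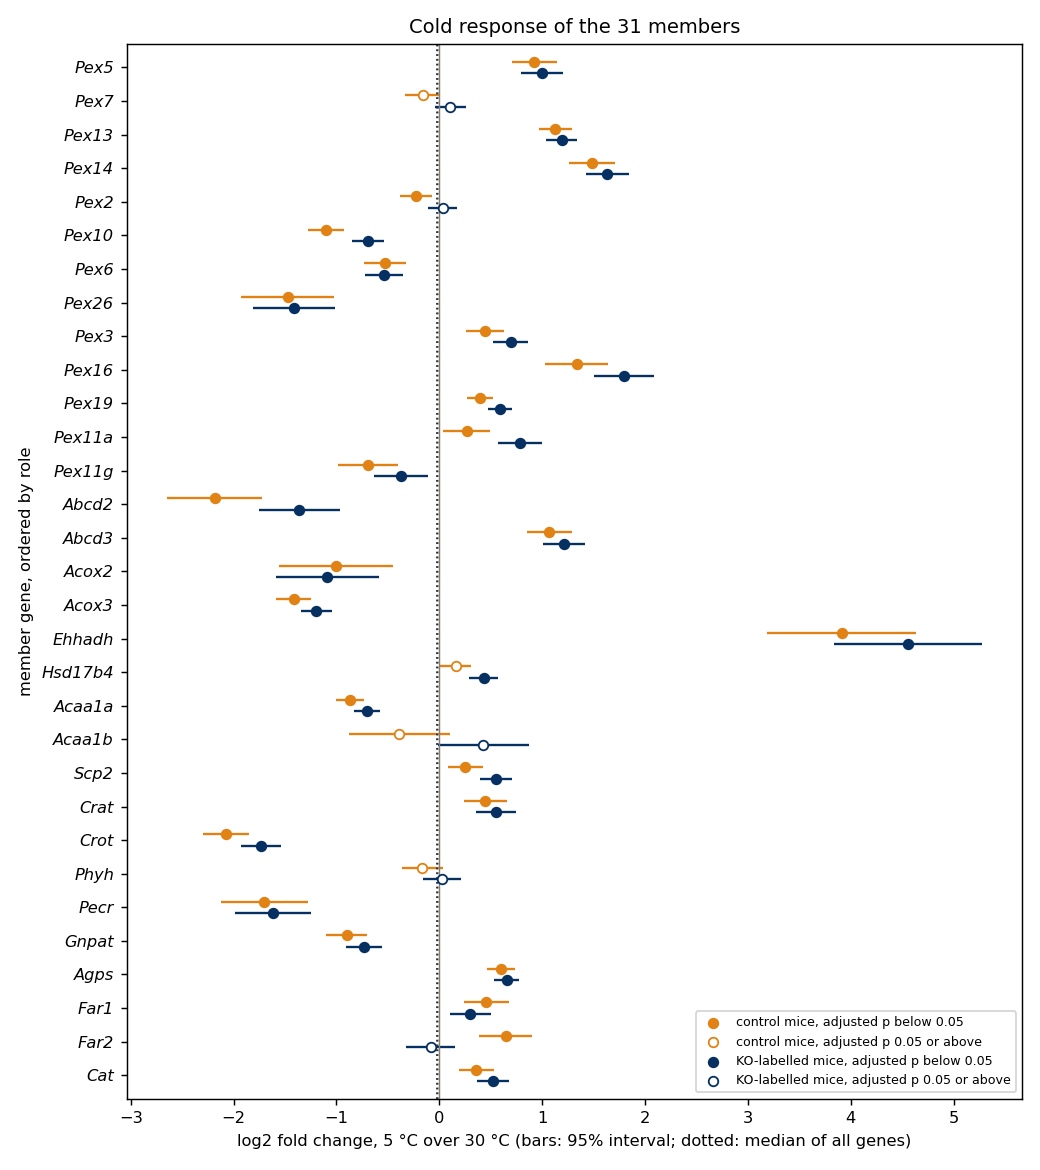
Log2 fold change of 5 °C over 30 °C for the 31 genes, in order of role from the import receptors (top) to catalase (bottom). Points are estimates in control mice (orange) and mice labelled KO (blue), bars their 95% intervals, filled points have an adjusted p below 0.05, and dotted lines mark the medians of all genes (-0.01 and -0.03). Ehhadh lies far to the right (3.91 and 4.56), and Abcd2 (-2.18 and -1.36) and Crot (-2.07 and -1.73) farthest to the left.

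Pex5 and both docking genes of the import machinery rose, and Pex10, Pex6 and Pex26, which act in receptor recycling, fell. Of the receptors, Pex5, which carries most matrix enzymes, rose by 0.92 (SE 0.11) in control mice and by 1.00 (SE 0.10), on the log2 scale, in mice labelled KO. Pex7, the receptor of the second targeting signal, had log2 fold changes of -0.16 (adjusted p = 0.0815) and 0.11 (adjusted p = 0.206).

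Pex14 (ENSMUSG00000028975.16, chromosome 4, 148960535 to 149099876, minus strand) had 20.3 to 37.2 CPM (median 23.5) in control mice at thermoneutrality and 63.5, 65.4, 70.3, 78.2 and 79.5 CPM at 5 °C. In mice labelled KO the range was 22.9 to 29.3 CPM (median 24.1) at thermoneutrality and 69.0 to 87.1 CPM (median 72.1) at 5 °C. No mouse at thermoneutrality reached the lowest mouse at 5 °C. The log2 fold changes were 1.49 (SE 0.11, adjusted p = 4.71e-12) and 1.63 (SE 0.10, adjusted p = 1.77e-13), and the first was 1.58 without control mouse 7, which gave the value of 37.2 CPM. Pex13 (ENSMUSG00000020283.5, chromosome 11, 23646479 to 23665959, minus strand), its partner in the docking complex, went from 87.9 to 111 CPM (median 95.8) to 188, 212, 215, 220.2 and 229.7 CPM in control mice. In mice labelled KO it went from 84.7 to 105 CPM (median 88.4) to 187 to 259 CPM (median 206.5), again with no overlap. Pex13 rose by 1.13 (SE 0.08, adjusted p = 1.40e-12) and 1.19 (SE 0.07, adjusted p = 9.99e-14) on the log2 scale. Exons of Pex13 overlap those of Pus10 on the opposite strand, which also rose (0.65 and 0.75), and those of Pex14 overlap Gm17029 (1.25 to 6.48 CPM), and the strand setting of the counting is not given in the sources used here.

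The ligase Pex10 fell by 1.10 (SE 0.09) in control mice and by 0.69 (SE 0.08) in mice labelled KO on the log2 scale. Its partner Pex2 fell by 0.23 (SE 0.08, adjusted p = 0.0114) in control mice and had a log2 fold change of 0.03 (adjusted p = 0.702) in mice labelled KO. The genotypes' responses of Pex2 differed by 0.26 with an adjusted p of 0.213, so a difference was not shown. Pex6, the ATPase, fell by 0.53 (SE 0.10) and 0.54 (SE 0.09).

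Pex26 (ENSMUSG00000067825.11, chromosome 6, 121183667 to 121198837, plus strand), the membrane anchor of that ATPase, had 9.64 to 12.4 CPM (median 10.7) in control mice at thermoneutrality and 2.55, 3.48, 3.79, 4.25 and 5.36 CPM at 5 °C. In mice labelled KO it had 9.11 to 12.1 CPM (median 11.9) and 1.42 to 6.53 CPM (median 4.54). All mice at 5 °C were below all mice at thermoneutrality, although the cold mice spread more widely relative to their mean. The log2 fold changes were -1.48 (SE 0.22, adjusted p = 1.42e-06) and -1.41 (SE 0.19, adjusted p = 3.96e-07).

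The 3 genes of membrane assembly rose in both genotypes. Pex3, the membrane receptor of this route, rose by 0.45 and 0.69 on the log2 scale (SE 0.09 and 0.08), and Pex19, the soluble carrier of membrane proteins, by 0.39 and 0.59 (SE 0.06 and 0.06). Exons of Pex3 overlap those of Adat2 on the opposite strand (1.60 to 6.46 CPM), which rose (1.40 and 1.48). Pex16 (ENSMUSG00000027222.14, chromosome 2, 92374676 to 92381217, plus strand), which recruits Pex3, had 26.6 to 51.6 CPM (median 31.6) in control mice at thermoneutrality and 68.1, 78.0, 85.2, 88.4 and 102.8 CPM at 5 °C. In mice labelled KO it had 26.3 to 37.8 CPM (median 28.6) and 77.1 to 140.5 CPM (median 108). The groups at the 2 temperatures did not overlap, and the mouse at 51.6 CPM was control mouse 7. Pex16 rose by 1.34 (SE 0.15, adjusted p = 1.29e-08) and 1.79 (SE 0.14, adjusted p = 1.46e-11) on the log2 scale, and by 1.45 in control mice without that mouse.

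The 2 Pex11 genes went opposite ways. Pex11g, the gamma form, fell by 0.70 (SE 0.14) in control mice and by 0.38 (SE 0.13) in mice labelled KO. Pex11a, the form known to be induced by PPARα ligands, rose by 0.78 (SE 0.10, adjusted p = 1.74e-07) in mice labelled KO. In control mice Pex11a rose by 0.26 (SE 0.11, adjusted p = 0.0398). That call was lost in 8 of 12 fits leaving out 1 mouse (adjusted p up to 0.142, without control mouse 18 at 5 °C). It was also lost with library size alone (0.13, adjusted p = 0.374) and with upper-quartile factors (0.16, adjusted p = 0.1985). The same held without a filter (adjusted p = 0.0648), with at least 10 counts in every mouse (0.0835) and with only the groups compared (0.0591).

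Fatty-acyl transport showed the same split. Abcd3, an ATP-binding transporter of branched-chain and dicarboxylic acyl-CoA, rose by 1.07 (SE 0.11) and 1.21 (SE 0.10) on the log2 scale. Abcd2 (ENSMUSG00000055782.8, chromosome 15, 91145871 to 91191799, minus strand), a transporter of very-long-chain acyl-CoA, had 96.0 to 234 CPM (median 117) in control mice at thermoneutrality and 24.5, 28.5, 30.6, 30.9 and 31.1 CPM at 5 °C. In mice labelled KO it had 76.9 to 150.1 CPM (median 121) and 29.2 to 75.7 CPM (median 40.1). The temperatures did not overlap in either genotype. Abcd2 had log2 fold changes of -2.18 (SE 0.22, adjusted p = 2.74e-09) and -1.36 (SE 0.19, adjusted p = 5.89e-07). Without control mouse 7, which held the 234 CPM, the first was -2.01.

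Among the 7 genes of β-oxidation, 2 rose and 3 fell in control mice, and 3 rose and 3 fell in mice labelled KO. Ehhadh (ENSMUSG00000022853.6, chromosome 16, 21761287 to 21787807, minus strand), the L-bifunctional enzyme of the hydratase and dehydrogenase steps, had 22.9 to 61.7 CPM (median 31.4) in control mice at thermoneutrality and 238, 360.4, 379, 579 and 959 CPM at 5 °C. In mice labelled KO it had 20.8 to 50.3 CPM (median 25.1) and 309.7 to 1177 CPM (median 749.7). Every mouse at 5 °C was well above every mouse at thermoneutrality, and the mice at 5 °C differed widely among themselves. Ehhadh rose by 3.91 (SE 0.35, adjusted p = 2.18e-10) and 4.56 (SE 0.35, adjusted p = 8.64e-12) on the log2 scale, the largest change of any member in both genotypes. Leaving out single mice moved the first value between 3.54 and 4.13.

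The other bifunctional enzyme, Hsd17b4, which acts on branched chains and bile acid precursors, gave 0.16 (SE 0.07, adjusted p = 0.0647) in control mice and rose by 0.43 (SE 0.07, adjusted p = 3.59e-06) in mice labelled KO. Their difference, 0.27, had an adjusted p of 0.177. The first value passed without control mouse 17 at 5 °C (0.20, adjusted p = 0.0330), and the second lost its call with library size alone (0.11, adjusted p = 0.34). The oxidases of the first step fell. Acox3 fell by 1.41 (SE 0.08) and 1.19 (SE 0.07) on the log2 scale. Acox2 fell by 1.01 (SE 0.27) and 1.09 (SE 0.24) from a low level (1.93 CPM in control mice at thermoneutrality). Of the thiolases that close each round, Acaa1a fell by 0.87 (SE 0.07) and 0.70 (SE 0.06). Scp2, whose gene also encodes a sterol carrier protein, rose by 0.25 (SE 0.08) and 0.55 (SE 0.08). Scp2 lost its call in control mice with library size alone (0.13, adjusted p = 0.346) and with upper-quartile factors (0.15, adjusted p = 0.127), and in mice labelled KO with library size alone (0.22, adjusted p = 0.0557).

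Acaa1b had log2 fold changes of -0.39 (SE 0.24, adjusted p = 0.159) and 0.43 (SE 0.21, adjusted p = 0.0779). It passed without control mouse 19 at 5 °C in control mice (-0.60, adjusted p = 0.0382), and without mouse 22 or 23 at 5 °C in mice labelled KO (0.52 each). The longest coding transcripts of Acaa1a and Acaa1b were identical at 96.6% of 1428 aligned bases, so their counts are uncertain to the extent that reads could not be assigned to one of them. Acaa1a also overlaps Myd88 on the opposite strand, which rose (0.81 and 0.88).

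The carnitine acyltransferases split as well. Crat, the acetyltransferase, rose by 0.45 (SE 0.10) and 0.55 (SE 0.09), calls that were lost in both genotypes with library size alone (0.31, adjusted p = 0.0508, and 0.23, adjusted p = 0.110). Exons of Crat overlap those of Dolpp1 on the opposite strand (5.90 to 16.0 CPM), which fell (-0.60 and -0.59). Crot (ENSMUSG00000003623.4, chromosome 5, 8966033 to 8997324, minus strand), which hands medium chains from the peroxisome to carnitine, had 63.7 to 89.4 CPM (median 78.1) in control mice at thermoneutrality and 15.2, 18.1, 18.5, 18.8 and 20.1 CPM at 5 °C. In mice labelled KO it had 66.7 to 81.9 CPM (median 71.3) and 17.2 to 29.02 CPM (median 21.7). Both cold groups lay well below both thermoneutral groups. The log2 fold changes were -2.07 (SE 0.11, adjusted p = 8.12e-15) and -1.73 (SE 0.10, adjusted p = 1.36e-14).

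Phyh, the highest member at thermoneutrality, had log2 fold changes of -0.17 (SE 0.10, adjusted p = 0.135) and 0.03 (SE 0.09, adjusted p = 0.803). Pecr (ENSMUSG00000026189.13, chromosome 1, 72259167 to 72284314, minus strand), a trans-2-enoyl-CoA reductase, had 9.53 to 17.7 CPM (median 13.2) in control mice at thermoneutrality and 2.02, 3.53, 4.598, 4.72 and 6.11 CPM at 5 °C. In mice labelled KO it had 13.3 to 20.1 CPM (median 14.3) and 3.66 to 6.14 CPM (median 5.44). No value at 5 °C reached the lowest at thermoneutrality. Pecr had log2 fold changes of -1.70 (SE 0.20, adjusted p = 4.74e-08) and -1.62 (SE 0.18, adjusted p = 1.05e-08). D230017M19Rik, on the opposite strand, shares exons with it at 0.769 to 5.06 CPM and fell too (-1.13 and -1.66).

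In ether lipid synthesis the 2 enzymes that work one after the other moved apart. Gnpat, the acyltransferase of the first step, fell by 0.90 (SE 0.10) and 0.74 (SE 0.09) on the log2 scale. Agps, which then makes the ether bond, rose by 0.60 (SE 0.07) and 0.65 (SE 0.06). Exons of Gnpat overlap those of 2810004N23Rik on the opposite strand (24.5 to 57.0 CPM), which rose (0.75 and 0.38). They also overlap Gm16163 on the same strand (2.66 to 7.43 CPM, -0.22 and -0.55). Far1, the main supplier of the fatty alcohol, rose by 0.46 (SE 0.11) and 0.30 (SE 0.10), although in mice labelled KO the value was -0.0092 with library size alone and did not pass with upper-quartile factors (0.14, adjusted p = 0.186). Catalase rose by 0.36 (SE 0.08) and 0.53 (SE 0.08), and with library size alone it passed in neither genotype (0.23, adjusted p = 0.0974, and 0.21, adjusted p = 0.0989).

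**Figure D3:**
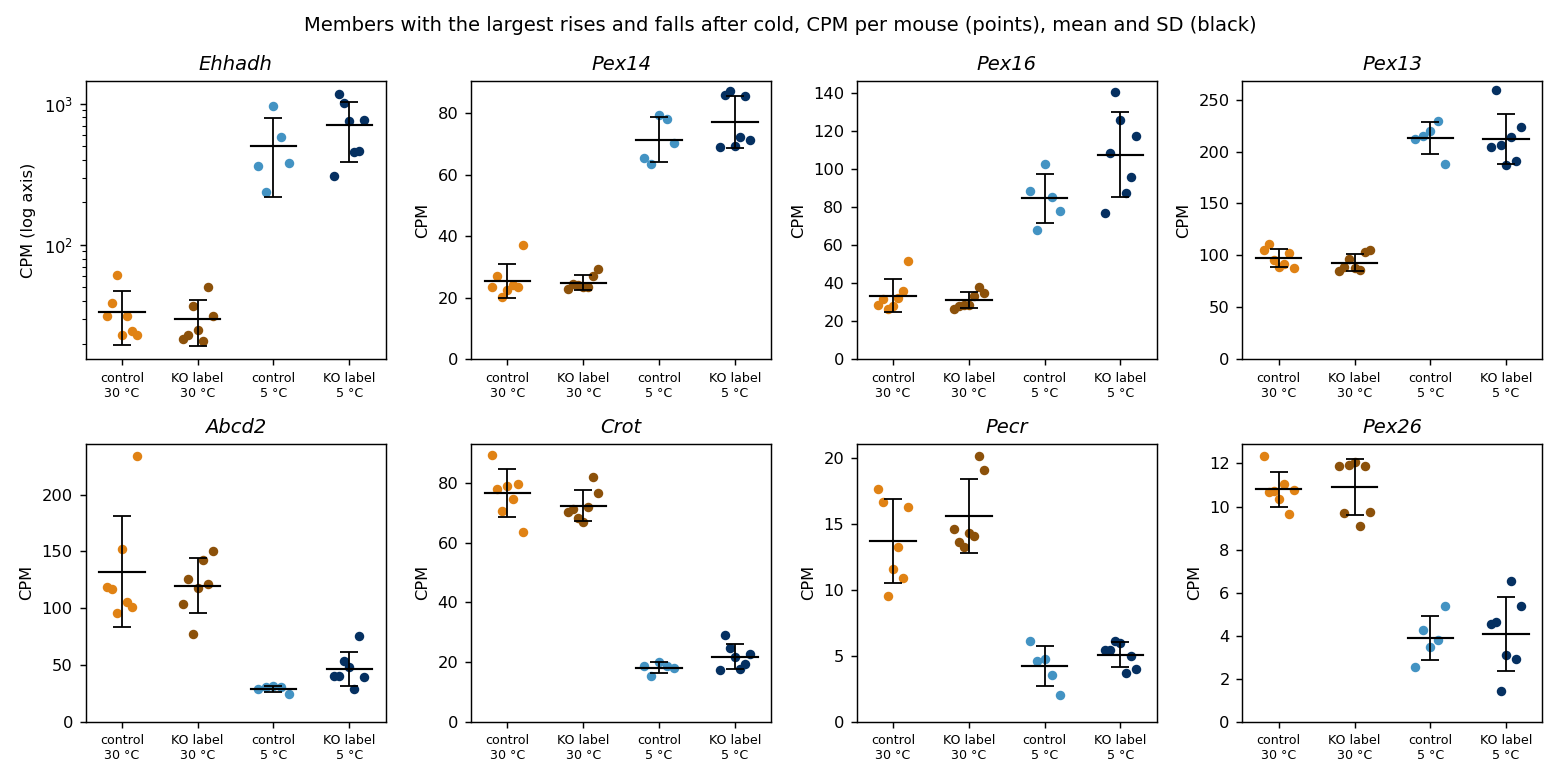
CPM of the 4 members with the largest rises (top; Ehhadh on a log axis) and the 4 with the largest falls (bottom) in control mice, all other axes linear from 0. Each point is a mouse, and black lines give the mean and SD of 7, 7, 5 and 7 mice in the order control 30 °C, KO label 30 °C, control 5 °C, KO label 5 °C. In each panel the 2 temperatures do not overlap, and single points stand high at 30 °C in control mice for Pex14 (37.2 CPM), Pex16 (51.6) and Abcd2 (234).

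The comparison of the genotypes at thermoneutrality asks whether mice labelled KO differed before the cold. None of the 31 members passed the test with edgeR, beside 0.0810% of all genes, and 3 had an unadjusted p below 0.05, beside 7.65% of all genes (1 to 4 members when single mice were left out, 1 without mouse 8 or 10 labelled KO). DESeq2 also called none. The smallest adjusted p of a member was 0.446, no member's groups were apart (0.249% of all genes were), and the median log2 fold change was -0.07 beside -0.02 over all genes. The estimates were positive for 9 members and negative for 22, but for 25 and 6 with library size alone, where the median of all genes moved to 0.13. Without control mouse 7 they were positive for 14, with a median of -0.0085, and 93 genes of all were called in place of 14. The 3 members of smallest p were Far2, Pex2 and Pex10. Far2 is described further on.

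Pex2 had 49.7 to 65.6 CPM (median 58.6) in control mice and 46.6 to 55.3 CPM (median 51.5) in mice labelled KO, with ranges that overlapped. Its log2 fold change was -0.17 (SE 0.07, adjusted p = 0.559). Pex10 had 15.7 to 20.7 CPM (median 18.3) and 14.8 to 18.0 CPM (median 16.4), also overlapping. It differed by -0.16 on the log2 scale (SE 0.07, adjusted p = 0.607). Of the nuclear RNA markers (Malat1, Neat1, Kcnq1ot1 and Meg3), 3 of 4 had p below 0.05 here, and their sum was 8951 to 10573 CPM in control mice and 10423 to 11779 CPM in mice labelled KO. Their part in these values was not tested.

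The comparison after cold asks the same at 5 °C. No member passed with edgeR (0.139% of all genes did), nor with DESeq2, and 12 of 31 had an unadjusted p below 0.05, beside 13.4% of all genes. That count was 4 with library size alone, 5 without the 3 mice with the most extreme library factors (control mouse 7, mice 24 and 25 labelled KO), and 7 to 16 when single mice were left out (7 without control mouse 17, 16 without control mouse 18 or mouse 22 labelled KO). No member's groups were apart, against 1.11% of all genes. The smallest adjusted p was 0.160. The estimates were positive for 26 members and negative for 5 (22 and 9 with library size alone), with a median of 0.16 beside 0.02 over all genes. Far2, Abcd2 and Acaa1a had the smallest p.

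The Abcd2 values at 5 °C given above, 24.5 to 31.1 CPM in control mice and 29.2 to 75.7 CPM in mice labelled KO, overlapped through 1 mouse of the latter group, and the other 6 were higher than every control mouse. The log2 fold change was 0.68 (SE 0.21, adjusted p = 0.162). Acaa1a had 42.5, 45.0, 45.2, 45.6 and 48.8 CPM in control mice and 47.2 to 55.8 CPM (median 51.9) in mice labelled KO, where again 6 of 7 lay above all controls. Its log2 fold change was 0.21 (SE 0.07, adjusted p = 0.162). Ehhadh, for all its rise, gave 0.48 with a 95% interval of -0.20 to 1.17, so the test did not show whether the genotypes differed.

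Markers of other kinds moved beside these values at 5 °C. All 5 red cell genes had p below 0.05 (median log2 fold change 0.93, none past the adjusted threshold), and their sum was 417 to 684 CPM in control mice and 517 to 1497 CPM in mice labelled KO. The nuclear RNA genes had p below 0.05 in 4 of 4, with 1 past the adjusted threshold, and summed to 14840 to 16273 CPM in control mice and 10340.0 to 13577 CPM in mice labelled KO. Skeletal muscle genes ran from 0.815 to 4827 CPM and from 1.75 to 7545 CPM. No gene of these 3 lists was at 0 in every library. Their part in the values of the members was not tested.

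**Figure D4:**
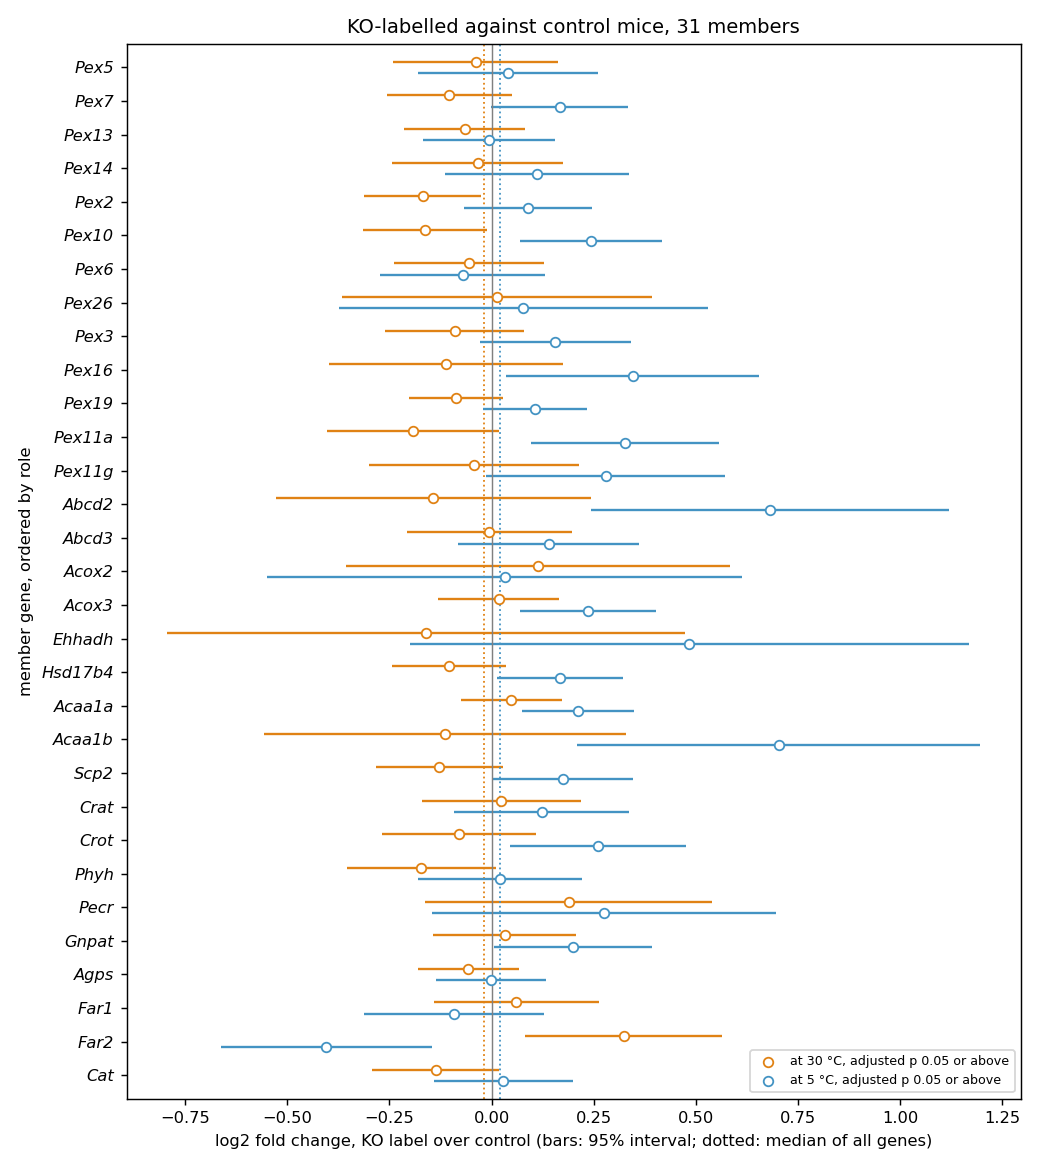
Log2 fold change of mice labelled KO over control mice for the 31 genes, at 30 °C (orange) and 5 °C (blue), in order of role. Bars are 95% intervals and dotted lines the medians of all genes (-0.02 and 0.02). All points are open, since none had an adjusted p below 0.05, and Far2 is the member with a positive value at 30 °C (0.32) and an interval below 0 at 5 °C (-0.40).

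The last comparison asks whether the cold response differed between the genotypes, as the response of mice labelled KO minus that of control mice. One member, Far2, passed the test, with the lower response in mice labelled KO; 1.16% of all genes passed, 0.868% with a negative difference. An unadjusted p below 0.05 was seen for 12 of 31, beside 16.2% of all genes, but for 2 with library size alone and 8 with upper-quartile factors. The differences were positive for 27 members and negative for 4, with a median of 0.19 beside 0.04 over all genes. With library size alone 15 were positive and the median of all genes was -0.15, with 27 members above it. The lean to positive values was not particular to the members. In the 2 lists described further on, 49 of 55 other peroxisomal genes were positive (median 0.21). So were 20 of 21 genes of mitochondrial fatty acid oxidation (median 0.19).

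Far2 (ENSMUSG00000030303.15, chromosome 6, 148047259 to 148182758, plus strand) had 1.93 to 3.05 CPM (median 2.24) in control mice and 2.36 to 3.38 CPM (median 3.10) in mice labelled KO at thermoneutrality. At 5 °C it had 3.18, 3.62, 3.69, 3.80 and 4.32 CPM in control mice and 2.38 to 3.44 CPM (median 2.75) in mice labelled KO. Every control mouse at 5 °C was above every control mouse at thermoneutrality, while the groups labelled KO overlapped, and the genotypes overlapped at each temperature. These values rest on 31 to 75 reads per mouse. Far2 rose by 0.64 (SE 0.13, adjusted p = 6.93e-05) in control mice and, also on the log2 scale, had -0.08 (SE 0.12, adjusted p = 0.537) in mice labelled KO.

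The difference of these responses was -0.73 (SE 0.17, adjusted p = 0.0355). By genotype, the log2 difference of mice labelled KO from control mice in Far2 was 0.32 at thermoneutrality (SE 0.12, adjusted p = 0.446) and -0.40 at 5 °C (SE 0.13, adjusted p = 0.160), neither past the threshold. Two-sided exact permutation tests of the mean log2 CPM of Far2 alone gave differences of 0.31 (p = 0.0128) and -0.39 (p = 0.00758), or 0.0128 for both after Benjamini-Hochberg adjustment over the 2 tests, where the smallest p possible were 0.000583 and 0.00253. Far2 was picked for these tests from its result across all genes in the same mice. The permutation p do not account for that choice and are no separate evidence. Without a filter on low counts the adjusted p of the difference was 0.116, and it ranged from 0.0271 to 0.0761 when single mice were left out, below 0.05 in 14 of 26 fits.

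Far2 shares exons with Ergic2 on the opposite strand, which had 28.0 to 62.6 CPM, rose in both genotypes (0.73 and 0.78) and had a difference of responses of 0.05 (adjusted p = 0.847). It also overlaps Far2os2, which had no read in any mouse.

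The members next in order had positive differences that did not pass. Pex10 had a difference of 0.41 (SE 0.11, adjusted p = 0.0698) and Pex11a one of 0.52 (SE 0.15, adjusted p = 0.0878). DESeq2 gave adjusted p of 0.0273 and 0.0339 for these. Abcd2 had a difference of 0.82 (SE 0.28, adjusted p = 0.146), Acaa1b 0.82 (SE 0.32, adjusted p = 0.204) and Ehhadh 0.64 (SE 0.45, adjusted p = 0.505). In this comparison all 4 nuclear RNA genes had p below 0.05 and 2 passed with a negative sign (median -0.52), and all 5 red cell genes had p below 0.05 with none past the threshold (median 1.25). Their part in the members' differences was not tested.

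A further 63 peroxisomal genes and 21 genes of mitochondrial fatty acid oxidation were set beside the members. Of the former, 55 could be tested, and 22 rose and 19 fell in control mice, while 32 rose and 14 fell in mice labelled KO, with medians of 0.04 and 0.25. That is 74.5% and 83.6% called in the cold, beside 65.0% and 68.6% of all genes. The largest rises were in the acyl-CoA thioesterases Acot4 (3.36 and 3.62 on the log2 scale) and Acot3 (2.98 and 3.38), members of a family of close copies whose counts may be shared, and in Slc25a17, a peroxisomal cofactor carrier (2.91 and 2.97). Large falls were seen in Mpv17l (-2.75 and -1.60) and in Mvk, the mevalonate kinase of sterol synthesis (-1.65 and -1.50). None of the 55 passed in a comparison of genotypes or of responses with edgeR. An unadjusted p below 0.05 was seen for 5 at thermoneutrality, 15 at 5 °C and 15 for the difference of the responses. The shares of all genes were 7.65%, 13.4% and 16.2%. Between the genotypes, 43 of the 55 estimates were negative at thermoneutrality and 43 were positive at 5 °C.

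Of the mitochondrial genes, 5 rose and 7 fell in control mice (median -0.03), and 10 rose and 2 fell in mice labelled KO (median 0.16), which is 57.1% called in each, beside 65.0% and 68.6% of all genes. None of the 21 passed for a difference of the responses with edgeR, and 8 had an unadjusted p below 0.05, beside 16.2% of all genes. Between the genotypes, all 21 estimates were negative at thermoneutrality and 17 were positive at 5 °C. Slc25a20, the carnitine carrier of the inner membrane, rose by 1.26 and 1.302, Etfdh, which passes electrons to the respiratory chain, by 1.21 and 1.23, and Cpt1b, the carnitine palmitoyltransferase of the outer membrane, by 0.60 and 0.62. Acad10 had -0.49 and -0.60 and Hadh -0.45 and -0.21, both past the threshold. Acaa2, the mitochondrial thiolase, had -0.38 (adjusted p = 0.000446) in control mice and -0.04 (adjusted p = 0.641) in mice labelled KO, a difference of 0.34 with an adjusted p of 0.151. No mitochondrial gene reached the size of the rise of Ehhadh or the falls of Abcd2 and Crot.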

How the data were processed

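The authors made stranded, rRNA-depleted total RNA libraries and sequenced them as 100-base single reads, which were aligned to mm10 with STAR 2.5.2b and counted per gene with featureCounts 1.5.2 on GENCODE release M13. The deposited values are raw counts, 1 column per mouse. The table was analysed with edgeR 4.0.16 in R 4.3.3, as in the study's model of 4 groups, with its default expression filter by group, TMM factors and quasi-likelihood tests over 17286 genes in 1 fit of 26 mice, adjusted over all of them by the Benjamini-Hochberg method. DESeq2 1.42.0 was an alternative. CPM per kb used the exon length of GENCODE release M21, which is also the source of coordinates (GRCm38). Promoters are from RefSeq. The code was tested on simulated data. A first bound on the number of changed genes recovered was a guess, was missed and was dropped after that run. The checks then used were on bias, on the share of false calls and on calls in data without changes. Members and lists were chosen with earlier results of these data known. Values in every mouse were given for the 4 largest called rises and falls in control mice with a mean of at least 1 CPM, for members called between genotypes, and otherwise for the 3 of smallest p. Alternatives were another scaling, filter, test or spread estimate, only the groups compared, and leaving out mice. Replicates are mice. The mouse numbers are those of the labels. The authors' edgeR 3.22.0 results were not used. A result for 1 further gene is not reported here.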

Additional observations from a re-analysis of the deposited data

Results flagged for a closer look

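Of the members, 7 values stood away from the other mice of their group by a test of the gap over the range, in 124 groups of 5 or 7 mice, and chance gives such a gap in about 1 of 20. Control mouse 7 at thermoneutrality gave 3 of them, with 37.2 CPM for Pex14 (next 27.0), 51.6 CPM for Pex16 (next 35.6) and 234 CPM for Abcd2 (next 152). That mouse also had the lowest share of mitochondrial reads (14.3%). Control mouse 3 at thermoneutrality had 61.7 CPM for Ehhadh (next 38.7) and the lowest value for Hsd17b4, 215 CPM (next 251). Among mice labelled KO at 5 °C, mouse 24 had 13.0 CPM for Acaa1b (next 8.04) and mouse 27 had 96.8 CPM for Agps (next 82.3).

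The cold responses of the genotypes differed for Far2 by -0.73 on the log2 scale, tested as a difference of responses (adjusted p = 0.0355).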

How the results depend on the processing

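No paired analysis was possible because the groups compared share no replicate numbers. The counts of members called in the cold stayed within 1.5 times under every setting, and were 26 to 29 in control mice and 26 to 27 in mice labelled KO when single mice were left out. For the difference of the responses, DESeq2 called 3 members (2 higher, Pex10 and Pex11a) and no filter called 0 (0 lower), and leaving out single mice gave 0 to 2 (0 to 1 higher, 0 to 1 lower). Far2 lost its call without control mouse 2, 4, 6, 16, 17, 19 or 21 or without mouse 8, 9, 10, 12 or 25 labelled KO. At thermoneutrality, leaving out the 3 mice with the most extreme library factors (control mouse 7, mice 24 and 25 labelled KO), chosen after seeing the data, called 1 member (1 lower), Phyh at -0.26 (adjusted p = 0.0399). In the cold response of mice labelled KO the sign turned with library size alone for Pex7 (-0.23), Pex2 (-0.29), Phyh (-0.29) and Far1 (-0.0092), with upper-quartile factors for Pex7 (-0.053), Pex2 (-0.13) and Phyh (-0.13), with at least 10 counts in every mouse for Pex2 (-0.033) and Phyh (-0.037), and with only the groups compared for Pex2 (-0.00957) and Phyh (-0.015). Leaving out single mice gave -0.010 to 0.056 for Pex2 and -0.016 to 0.043 for Phyh. Library size alone moved the median of all genes to -0.34 in that comparison and -0.14 in the cold response of control mice, and the cause of the other changes was not tested. Depth limits the low members, of which Acox2, Pex26 and Far2 had down to 5, 19 and 31 reads in a mouse.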
